A study of Mus musculus with 9 samples.

Results

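The visual cycle, the set of reactions that returns the spent chromophore of the photoreceptor opsins to its light-sensitive form, was followed through 10 genes in mouse retina. The members were taken by gene symbol from the 22337 genes measured: Rbp3, Rdh12, Abca4, Rdh8, Rlbp1, Rpe65, Lrat, Rdh5, Stra6 and Rgr. All 10 were present once and passed the filter on low counts in each of the 3 comparisons. Messenger RNA was sequenced from retinas collected at postnatal day 28 (P28), with 3 libraries in each of 3 groups. WT was the untreated C57 BL/6J strain. The mice of both other groups carried the rd10 missense mutation of Pde6b, a subunit of the rod phosphodiesterase, under which rods die and cones follow. These rd10 groups received 1 µL per eye at P14 and again at P21, either of normal saline (NS) or of extracellular vesicles from human umbilical cord mesenchymal stem cells (MSC-EVs). The series design places the injection in the vitreous, whereas the treatment protocol calls it intravenous. The rd10 groups were littermates, but WT mice came from another supplier and were not injected. Genotype, origin and injection thus cannot be told apart in any comparison with WT. Whether a library is 1 retina or a pool, and whether the libraries of a group come from separate animals, was not stated, and p-values measure the spread between these libraries.

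Light converts 11-cis-retinal, bound to opsin, to the all-trans form, which photoreceptors reduce to all-trans-retinol and release. The pigment epithelium behind the retina takes the retinol up, stores it as an ester, isomerizes and oxidizes it and sends 11-cis-retinal back, while Müller glia hold binding proteins for retinoids of their own. A retina lifted from its eyecup leaves most of the pigment epithelium behind, so transcripts of that layer reach the libraries from what stays attached.

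The estimated counts summed to 19491717 to 62532343 per library, with MSC-EVs replicate 3 the deepest, and the members had 61 to 230182 counts. Pde6b itself lay at 804 to 856 FPKM in WT and at 169 to 261 FPKM in the 6 rd10 libraries. FPKM is fragments per kilobase of transcript, scaled to depth. The rd10 mutation alters the protein, so this level does not check the labels. Y-linked genes summed to 4379 and 4421 counts in MSC-EVs replicates 1 and 2 and to 7 to 23 counts in the other 7 libraries. The labels give no sex, and these 2 libraries belong to 1 group.

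In WT retina the 3 most abundant members were photoreceptor genes, and levels had a wide range. Rbp3, the carrier protein that photoreceptors secrete into the space between them and the pigment epithelium, had 1169 ± 49.9 FPKM (SD, n = 3). Rdh12, a retinal reductase of photoreceptor inner segments, had 288 ± 11.2 FPKM (SD, n = 3), and Abca4, the transporter that clears retinal from outer segment discs, had 249.9 ± 21.001 (SD, n = 3). Rlbp1, which encodes the 11-cis-retinoid binding protein CRALBP of Müller glia and pigment epithelium, followed at 169.6 ± 11.7 FPKM (SD, n = 3). Rdh8, the all-trans-retinal reductase of outer segments, came next at 56.0 ± 1.48 FPKM (SD, n = 3). Below these the levels dropped 7.35-fold to Rgr, an opsin of pigment epithelium and Müller glia that binds all-trans-retinal, at 7.62 ± 2.60 FPKM (SD, n = 3). Rdh5, the 11-cis-retinol dehydrogenase of the pigment epithelium, had 4.21 ± 1.20 FPKM (SD, n = 3) and Rpe65, its isomerohydrolase, 4.20 ± 1.46 (SD, n = 3). Stra6, the receptor that takes up retinol from its plasma carrier, had 2.83 ± 0.901 FPKM (SD, n = 3) and Lrat, which esterifies retinol, 0.75 ± 0.303 (SD, n = 3). Neighbours in this order overlapped between libraries for Rdh5 and Rpe65 and for Rpe65 and Stra6, and all other neighbours were apart in the 3 WT libraries.

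The order changed in rd10. Rlbp1 ranked below Rdh12 and Abca4 in WT and above both in each rd10 group, with no overlap of libraries (3.001-fold above Rdh12 in NS-treated rd10 and 1.94-fold in MSC-EVs-treated rd10). The ranges of Rdh12 and Abca4 then overlapped, although Rdh12 lay above Abca4 within all 3 libraries of each rd10 group. Ranges of the neighbours among Rgr, Rdh5, Rpe65 and Stra6 overlapped too. Within libraries the neighbour of higher mean was the higher in 2 or 3 of 3. Rbp3 stayed first and Lrat last in all 3 groups.

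**Figure D1:**
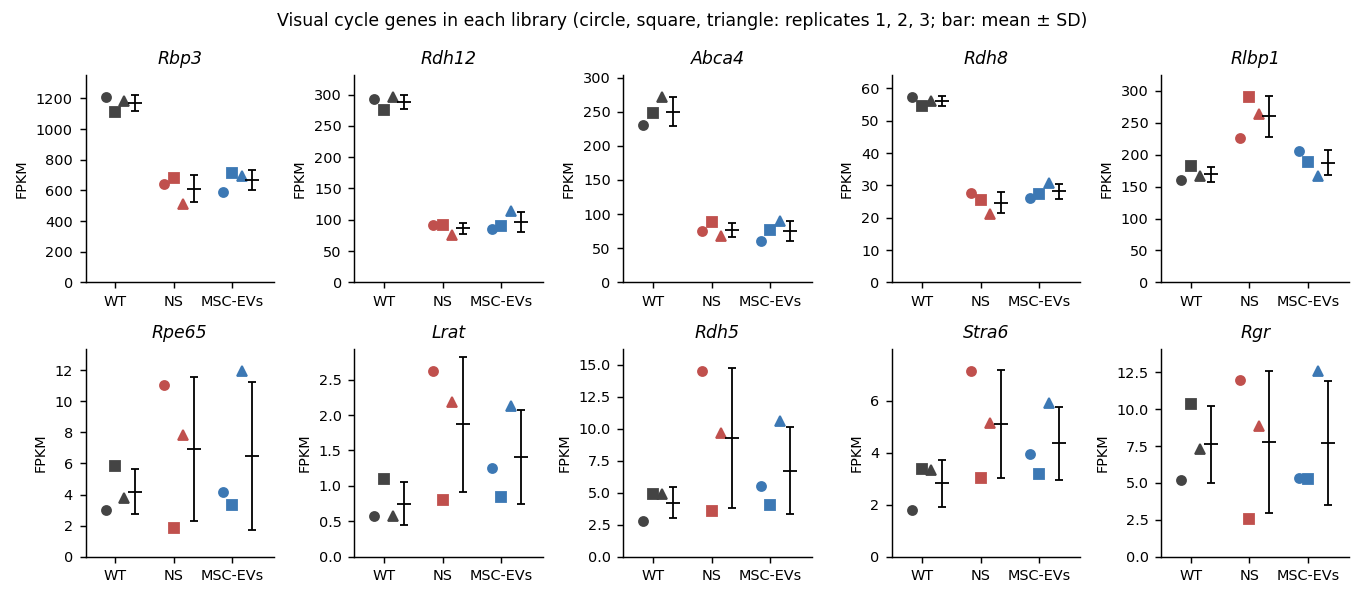
FPKM (linear axis from 0) of the 10 members in each library of WT, NS-treated rd10 (NS) and MSC-EVs-treated rd10 (MSC-EVs); circles, squares and triangles are replicates 1, 2 and 3, and bars give the mean ± SD of 3 libraries. The upper row shows Rbp3, Rdh12, Abca4 and Rdh8 with WT apart from both rd10 groups and Rlbp1 with NS apart from both others, while in the lower row the rd10 libraries spread from below to above WT or overlap it.

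The members lie on 6 chromosomes (GRCm38, GENCODE M21). Rpe65 (chr3:159599175-159625321), Abca4 (chr3:122044443-122180123), Stra6 (chr9:58063788-58153996), Rdh8 (chr9:20818503-20826117), Rdh12 (chr12:79208914-79222665) and Rbp3 (chr14:33954003-33964216) are on the plus strand. Lrat (chr3:82892579-82903973), Rlbp1 (chr7:79374870-79387048), Rdh5 (chr10:128913593-128922888) and Rgr (chr14:37034909-37048964) are on the minus strand. Rdh5 shares 720 exonic bases, 25.6% of its annotated exons, with Bloc1s1 on the same strand, and 20.4% of its 50-base stretches occur in transcripts of another gene, so part of its reads could have been assigned to either. For the other 9 members at most 0.499% of such stretches are shared.

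The start regions of the members were read to set their letters beside the way they varied. RefSeq promoter windows of GRCm38.p6, from 250 bases before a transcription start to 50 after it, were found for all 10 members. The core TAATCC, bound by the photoreceptor and pigment epithelium factors Crx and Otx2, was searched on both strands and was present in windows of 4 of 10 members, against 7.06% of the 32851 windows in the table. Each of these 4 is shown for 60 bases around the core, which is in capitals and reads GGATTA where it lies on the other strand. All 60 bases lie outside annotated exons. Abca4 and Rbp3 are expressed by photoreceptors, and Rpe65 and Rgr each had the other as the most similar gene across libraries. The positions are chr3:122044375-122044434 (plus strand) for Abca4, chr14:33953907-33953966 (plus) for Rbp3, chr3:159599112-159599171 (plus) for Rpe65 and chr14:37049149-37049208 (minus) for Rgr.
Abca4: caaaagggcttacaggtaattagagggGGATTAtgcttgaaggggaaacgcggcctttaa
Rbp3: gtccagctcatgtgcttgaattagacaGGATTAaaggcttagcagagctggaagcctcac
Rpe65: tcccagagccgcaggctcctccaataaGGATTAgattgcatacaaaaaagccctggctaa
Rgr: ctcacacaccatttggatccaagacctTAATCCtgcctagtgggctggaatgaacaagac
The core began 58 bases before the start of Abca4, 69 before that of Rbp3, 42 before that of Rpe65 and 167 before that of Rgr. Rdh12 and Rdh8 had no match in these windows. TGCTGA, a core motif of the rod factor Nrl, was found for Stra6, Rlbp1, Rdh8, Rdh12 and Rbp3, 5 of 10 members, against 19.5% of all windows. TCATGTG, a motif of the pigment cell factor Mitf, was found for Rbp3 alone, 89 bases before its start, against 3.77% of all windows. Of the members Stra6 alone had more than 1 window, with 4. These matches are descriptions of letters and not of binding.

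The first comparison asked how the visual cycle genes stood in degenerating rd10 retina, NS-treated, against WT. All 4 photoreceptor members fell by more than 2-fold, Rlbp1 rose by less than 2-fold, and Rpe65, Lrat, Rdh5, Stra6 and Rgr did not pass the test. A gene was called when edgeR's quasi-likelihood test gave a Benjamini-Hochberg adjusted p under 0.05 over all genes tested and the change was at least 2-fold. In this sense 4 of 10 members were called lower, where 3.56% of the 14644 genes tested were, and 0 of 10 higher, where 9.16% of all genes were. With no limit on the fold change, 4 members were lower against 30.1% of all genes, and 1 was higher against 31.2%. WT and NS-treated rd10 libraries were apart for 5 of 10 members, against 66.9% of all genes, so members were no more often apart than other genes.

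Rdh12 had 293, 276 and 296 FPKM in WT, against 92.0, 91.4 and 76.5 in NS-treated rd10. The WT libraries all lay above the rd10 ones, with a gap wider than either group. Rdh12 was 3.78-fold lower (log2 fold change -1.92, SE 0.08, edgeR adjusted p = 4.10e-09). Abca4 had 229.9, 248 and 272 FPKM in WT, against 74.96, 87.8 and 67.9 in NS-treated rd10, again without overlap. It was 3.56-fold lower (log2 fold change -1.83, SE 0.10, edgeR adjusted p = 1.82e-07). Rdh8 had 57.4, 54.4 and 56.2 FPKM in WT, the tightest group among the members, and 27.6, 25.4 and 21.1 in NS-treated rd10. It was 2.56-fold lower (log2 fold change -1.35, SE 0.09, edgeR adjusted p = 2.79e-07). Rbp3 had 1210.3, 1114 and 1184 FPKM in WT, against 639.96, 684 and 513 in NS-treated rd10, and it also did not overlap. It was 2.16-fold lower (log2 fold change -1.11, SE 0.10, edgeR adjusted p = 2.74e-06), the smallest fall of the 4. In bulk retina, fewer photoreceptors and less RNA per photoreceptor cannot be told apart.

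These 4 falls were unequal. Rdh12 and Abca4 changed together: the log2 ratio of their FPKM was 0.21 in WT libraries and 0.18 in those of NS-treated rd10, with overlapping libraries (exact two-sided permutation p = 0.7). In the other 5 of 6 pairs the ratio did not overlap between the groups, which gives the smallest p that 3 against 3 libraries allow, 0.1. The widest difference, 0.80 on the log2 scale, was between Rdh12 and Rbp3.

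Rods make up most mouse photoreceptors, so the members were set against 16 rod markers, among them the abundant Gnat1 (rod transducin) and Sag (arrestin). The summed rod markers had 34776 to 36229 FPKM in WT and 7740 to 10700.04 in NS-treated rd10, and 15 of 16 were called lower, with a median log2 fold change of -1.87 against 0.01 over all genes tested. Rdh12 and Abca4 lay in the middle of this list, with 8 of 16 rod markers falling further than either. For Rdh8, 14 of 16 rod markers fell further, and for Rbp3 15 of 16. Measured against the mean log2 level of the rod markers in the same library, Rbp3 was 0.72 higher and Rdh8 0.47 higher with NS-treated rd10 than with WT, both without overlap (exact permutation p = 0.1 each). Rdh12 differed by -0.08 (p = 0.3) and Abca4 by -0.04 (p = 0.7) on the same exact permutation scale. The 4 members summed to 4.96 ± 0.0895% of the rod marker FPKM in WT and to 8.54 ± 0.233% in NS-treated rd10 (SD, n = 3 each), and the groups did not overlap. Rbp3 is the most abundant of the 4, and it weighs most in that sum. Where each gene was given equal weight, the log2 difference was 0.27 in place of 0.78. Cones also express these genes, and among 10 cone markers, led by Opn1sw, Gnb3 and Opn1mw, 0 were called. With no limit on the fold change, 3 were higher and 3 lower, with a median log2 fold change of 0.07. The part of cones in the levels of the members was not tested.

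**Figure D2:**
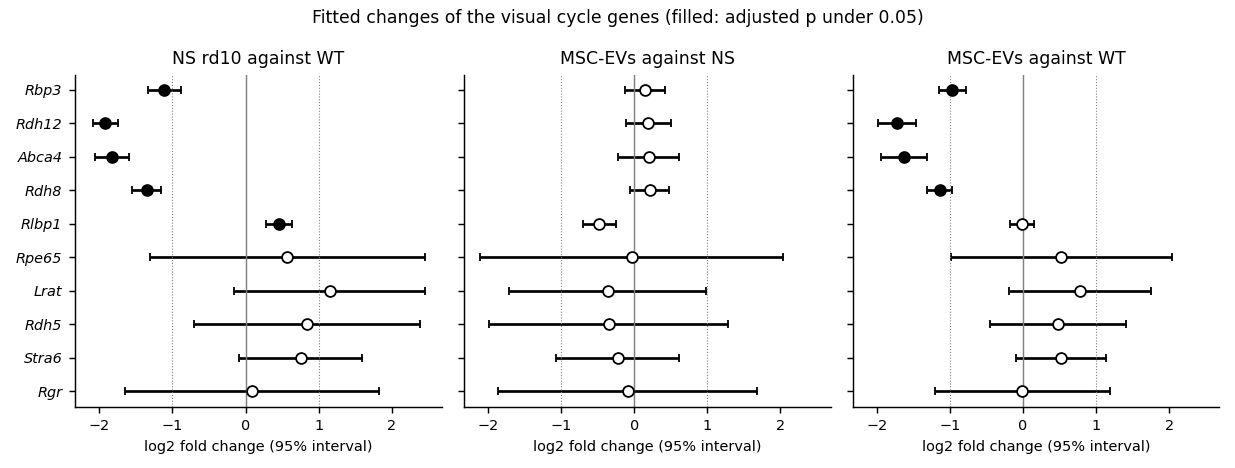
Fitted log2 fold changes (horizontal axis) of the 10 members in the 3 comparisons, with 95% intervals from edgeR's quasi-likelihood fit on 6 libraries each; filled points have an adjusted p under 0.05 over all genes, and dotted lines mark 2-fold. The 4 photoreceptor members lie at -1.92 to -1.11 in NS-treated rd10 against WT and within 0.14 to 0.21 in MSC-EVs against NS, and the intervals of Rpe65, Lrat, Rdh5, Stra6 and Rgr span 0 throughout.

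Rlbp1 was the member that rose. It had 160.2, 183 and 166 FPKM in WT, against 226, 290.4 and 263 in NS-treated rd10. Every rd10 library lay above every WT library. The fitted rise was 1.37-fold (log2 fold change 0.46, SE 0.08, edgeR adjusted p = 0.000368), and it passed the test under all 16 alternative settings. FPKM are read on another scale than the normalized counts of the fit: on log2(FPKM + 1), the median gene was 0.14 above WT in NS-treated rd10. Of 13 Müller markers, led by Apoe (a lipid carrier), Glul (glutamine synthetase) and Clu (clusterin), 6 were called higher, and the median log2 fold change was 0.88. Glul was at -0.03 (edgeR adjusted p = 0.853). Rlbp1 and Rgr together were 8.36 ± 0.545% of the summed Müller marker FPKM in WT and 5.55 ± 1.00% in NS-treated rd10 (SD, n = 3 each), without overlap. The sum changed in makeup: Glul was its largest part in WT, and Apoe (log2 fold change 2.10, edgeR adjusted p = 3.32e-09) and Clu (1.61, adjusted p = 1.71e-09) were the largest in NS-treated rd10. The log2 difference of the ratio was -0.60, and without Apoe it was -0.29 and the groups overlapped.

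The pigment epithelium members varied between libraries of 1 group by more than between the groups. Rpe65 had 2.98, 5.82 and 3.79 FPKM in WT, against 11.0, 1.87 and 7.86 in NS-treated rd10. The lowest and the highest of these 6 libraries both belonged to NS-treated rd10. Its log2 fold change was 0.57, with a 95% interval of -1.31 to 2.46 (edgeR adjusted p = 0.524). Rdh5 had 2.83, 4.88 and 4.93 FPKM in WT, against 14.5, 3.57 and 9.70 in NS-treated rd10. NS replicates 1 and 3 lay above WT and replicate 2 within it, and the log2 fold change was 0.84 (95% interval -0.70 to 2.38, edgeR adjusted p = 0.279).

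Lrat had 0.57, 1.10 and 0.58 FPKM in WT, against 2.62, 0.80 and 2.18 in NS-treated rd10. Here too NS replicate 2 fell within the WT range, with a log2 fold change of 1.15 (95% interval -0.16 to 2.46, edgeR adjusted p = 0.108). Stra6 had 1.79, 3.38 and 3.32 FPKM in WT, against 7.14, 3.01 and 5.15 in NS-treated rd10, a log2 fold change of 0.75 (95% interval -0.09 to 1.596, edgeR adjusted p = 0.104). Rgr had 5.22, 10.4 and 7.27 FPKM in WT, against 12.0, 2.56 and 8.83 in NS-treated rd10, and its means differed least. Its log2 fold change was 0.09 (95% interval -1.66 to 1.83, edgeR adjusted p = 0.919), and the sign changed with the setting. These intervals do not exclude changes of more than 2-fold in either direction for Rpe65 and Rgr. For Lrat, Rdh5 and Stra6 they do not exclude rises of more than 2-fold.

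With edgeR's quasi-likelihood test, the call for 4 of these 5 genes depended on NS replicate 2. Without it, Rpe65 (log2 fold change 1.00, edgeR adjusted p = 0.036), Lrat (1.501, adjusted p = 0.00128), Rdh5 (1.24, adjusted p = 0.0042) and Stra6 (1.01, adjusted p = 0.00674) were all called higher in rd10, which made 8 of 10 members called in place of 4. Rgr (0.49, edgeR adjusted p = 0.357) still did not pass. Of the 6 libraries left out in turn, no other moved the count of members called beyond 3 to 4. Without NS replicate 1 the log2 fold changes were lower: Rpe65 0.035, Rdh5 0.24, Stra6 0.41, Lrat 0.80 and Rgr -0.51. With all 6 libraries, edgeR's exact test passed Lrat (adjusted p = 0.0077) and Stra6 (adjusted p = 0.0168). Limma passed Lrat on log2(FPKM + 1) and log2(FPKM + 0.1) (adjusted p = 0.038 and 0.036).

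In FPKM, Rpe65, Lrat, Rdh5, Stra6 and Rgr shared 1 order of libraries in rd10. All 5 were highest in NS replicate 1, then 3, then 2, and in MSC-EVs replicate 3, then 1, then 2. For Rgr, MSC-EVs replicates 1 and 2 were close (5.34 and 5.27 FPKM). In normalized CPM replicate 2 was the higher (18.0 and 19.2). In WT 4 of 5 had the order 2, 3, 1, and Rdh5 had 3, 2, 1. Summed counts of the libraries had the same order as these FPKM in both rd10 groups. They were 28545619, 20762670 and 19491717 in NS replicates 1, 3 and 2, and 62532343, 23058113 and 22604485 in MSC-EVs replicates 3, 1 and 2. In WT the deepest library was replicate 1 (24155027), where all 5 members were lowest. Whether depth bears on the shared order was not tested. Over the 9 libraries their log2 CPM correlated pairwise with r of 0.70 to 0.95, and as deviations from group means with r of 0.91 to 0.99 (10 pairs). The 4 photoreceptor members correlated with r of 0.98 to 1.00 over the 9 libraries, a range that holds the difference between WT and rd10, and with 0.75 to 0.93 as deviations. Between the pigment epithelium set with Rgr and the photoreceptor members the deviations correlated with r of -0.40 to 0.30. Rlbp1, although also made by pigment epithelium, ran the other way in NS-treated rd10, with the order 2, 3, 1. With MSC-EVs its order was 1, 2, 3, lowest where the 5 were highest. In WT it had the order 2, 3, 1, as did 4 of the 5. Over all groups its deviations correlated with those of the 5 with r of -0.77 to -0.59. The points share libraries and depth, and these correlations are descriptions.

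**Figure D3:**
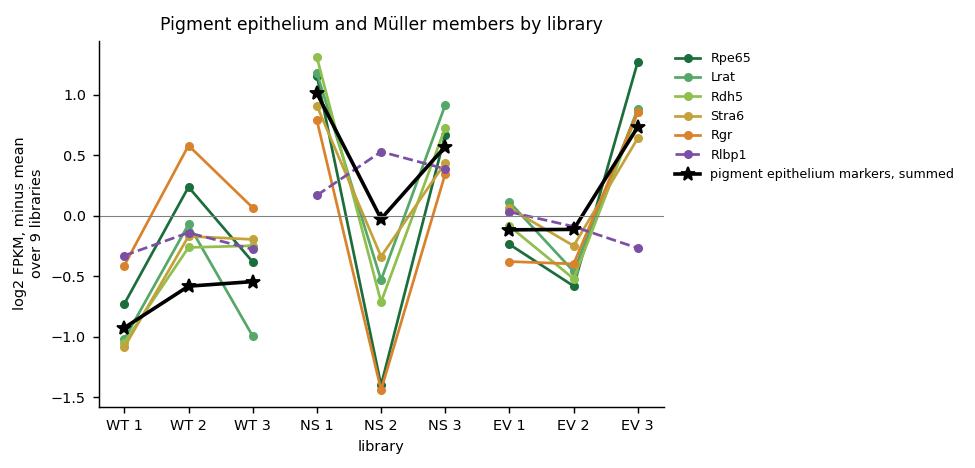
Log2 FPKM (vertical axis, minus the mean over 9 libraries) of Rpe65, Lrat, Rdh5, Stra6, Rgr and Rlbp1 and of the summed pigment epithelium markers (stars) in each library; lines join the libraries of a group and carry no order. The 5 solid coloured lines dip together in NS replicate 2 and MSC-EVs replicate 2 and peak in NS replicate 1 and MSC-EVs replicate 3, where the dashed line of Rlbp1 does not.

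The summed markers of the pigment epithelium followed this order in NS-treated rd10 and not fully in the other groups. The 15 pigment epithelium markers, led by Krt18 (a keratin), Ttr (transthyretin, which carries the retinol-binding protein) and Dct (a melanin enzyme), summed to 61.4, 77.9 and 79.9 FPKM in WT. The sum was 235, 115 and 173 FPKM in NS-treated rd10, highest in replicate 1 and lowest in replicate 2. It was 107.5, 108 and 194 FPKM in MSC-EVs-treated rd10, highest in replicate 3, with replicates 1 and 2 alike. Single markers differed: Ttr had 105, 26.9 and 78.2 FPKM in the NS libraries, the order of the members, whereas Krt18 had 61.9, 67.7 and 52.4 and was highest in replicate 2. The sum was thus higher in every rd10 library than in WT, also in NS replicate 2, where Rpe65 and Rgr lay below WT. Krt18 was the larger part of the sum in NS replicate 2. There Dct (8.08 FPKM) lay above its WT range (2.18 to 4.37) and Ttr within its own (17.0 to 30.9). Of the 14 markers tested in this comparison 6 were called higher, with a median log2 fold change of 1.38. Krt18 (0.57, edgeR adjusted p = 0.000146) rose by less than 2-fold, Dct (2.40, adjusted p = 0.031) was called, and Ttr (1.29, adjusted p = 0.135) did not pass. Rpe65, Lrat, Rdh5 and Stra6 together were 16.2 ± 3.11% of the summed markers in WT and 12.5 ± 3.83% in NS-treated rd10 (SD, n = 3 each), and the groups overlapped. This log2 difference, -0.41, depended on the libraries and markers taken. It was -0.12 without NS replicate 2 and -0.27 without WT replicate 2, and it was -0.67 with no overlap when Krt18 was left out of the markers. Several of these markers mark pigmented cells at large. Endothelial and stromal markers, led by Kdr, Cldn5 and Pecam1, summed to 44 to 46.8 FPKM in WT and 81.2 to 90.2 in NS-treated rd10, with 2 of 10 tested called higher. How much tissue of each kind was attached to a retina was not tested.

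**Figure D4:**
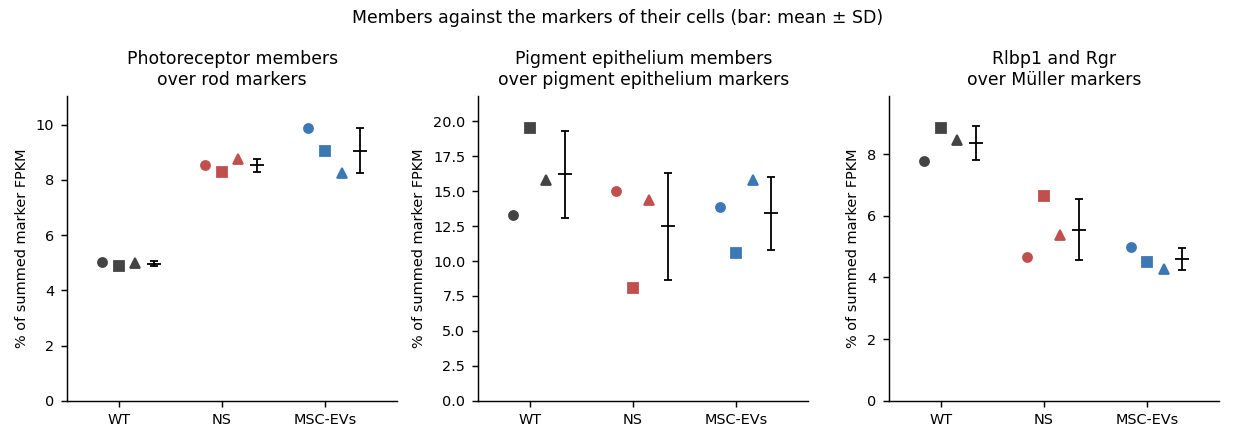
Summed FPKM of members as a percentage of the summed FPKM of the markers of the cells that hold them, by library and group, with the mean ± SD of 3 libraries. The photoreceptor members rise from 4.96% of the rod markers in WT to 8.54% in NS-treated rd10 without overlap, the pigment epithelium members overlap between groups, and Rlbp1 with Rgr lies lower against Müller markers in rd10.

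The second comparison asked whether MSC-EVs changed the visual cycle genes of rd10 retina. With edgeR's quasi-likelihood test, 0 of 10 members were called, where 0.061% of the 14765 genes tested were. At an adjusted p under 0.05 with no limit on the fold change the count was again 0, against 1.16% of all genes. At an unadjusted p under 0.05 it was 1, against 20.2% of all genes. That gene was Rlbp1, which was also the only member whose libraries did not overlap, against 26.2% of all genes. DESeq2's Wald test and edgeR's exact test each gave 1 member with an adjusted p under 0.05, again Rlbp1. Over all 14765 genes, 930 passed that limit with DESeq2's Wald test and 774 with the exact test, against 172 in the main fit.

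Rlbp1 had 206, 189 and 167 FPKM in MSC-EVs-treated rd10, all below the 226 to 290.4 FPKM of NS-treated rd10 and 2 of them above the WT range. In normalized CPM they had 404, 372 and 334 against 358, 394 and 375 in WT, with replicate 1 above WT and replicate 3 below it. The log2 fold change against NS was -0.48 (SE 0.10, 95% interval -0.70 to -0.25), with an edgeR adjusted p = 0.0596 and adjusted p-values of 0.000538 to 0.232 over the 17 alternatives. It passed with DESeq2, with edgeR's exact test, with no filter, with all 9 libraries in 1 fit and without NS replicate 1. The lowest NS library for Rlbp1 was replicate 1, which was the highest for Rpe65. Among the Müller markers 0 of 13 were called, and 2 had an adjusted p under 0.05, both lower: Hes1 (log2 fold change -0.76, edgeR adjusted p = 0.0252) and Car14 (-0.51, adjusted p = 0.032), which were chosen after their values were seen. Rlbp1 and Rgr made up 4.59 ± 0.363% of the summed Müller markers (SD, n = 3), which overlapped with NS.

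The photoreceptor members were close to their NS levels. Rdh12 had 85.6, 90.0 and 115 FPKM with MSC-EVs, of which only replicate 3 lay above the NS range. The log2 fold change was 0.19 (95% interval -0.12 to 0.50, edgeR adjusted p = 0.464). Abca4 had 60.8, 76.1 and 90.0 FPKM, spread to both sides of the NS range, with a log2 fold change of 0.20 (95% interval -0.22 to 0.62, edgeR adjusted p = 0.577). Rdh8 had 26.2, 27.3 and 30.9 FPKM, with 1 library above NS, and a log2 fold change of 0.21 (95% interval -0.05 to 0.47, edgeR adjusted p = 0.35). Rbp3 had 593, 711 and 695 FPKM, overlapping NS, and a log2 fold change of 0.14 (95% interval -0.13 to 0.41, edgeR adjusted p = 0.545). The 4 intervals reach 0.41 to 0.62 at their upper ends, so larger rises lie outside them. Rod markers had a median log2 fold change of 0.02, with 0 of 16 called. The 4 members were 9.05 ± 0.811% of the summed rod markers (SD, n = 3), which overlapped with NS (log2 difference 0.08), though under 1 alternative set of rod markers it was 0.14 without overlap. In 0 of 6 pairs did the ratio of members separate the rd10 groups.

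The pigment epithelium members again spread widely. Rpe65 had 4.19, 3.30 and 11.9 FPKM with MSC-EVs, replicate 3 being above all NS libraries and the others within their range. The log2 fold change was -0.04 with a 95% interval of -2.11 to 2.03 (edgeR adjusted p = 0.989). Rdh5 had 5.51, 4.08 and 10.6 FPKM, Lrat 1.25, 0.84 and 2.13, and Stra6 3.97, 3.20 and 5.93, each highest in replicate 3 and within the NS range. Their log2 fold changes were -0.35, -0.36 and -0.23, with edgeR adjusted p-values of 0.76 to 0.811. Rgr had 5.34, 5.27 and 12.6 FPKM, and a log2 fold change of -0.09 (95% interval -1.86 to 1.68, edgeR adjusted p = 0.963). The 95% intervals did not exclude a 2-fold change in either direction for Rpe65, Rgr or Rdh5 (-1.99 to 1.28). For Lrat (-1.71 to 0.98) and Stra6 (-1.07 to 0.61) they did not exclude a 2-fold fall. Of the 15 pigment epithelium markers 0 were called, with a median log2 fold change of -0.72, and the 4 pigment epithelium members were 13.4 ± 2.62% of their sum (SD, n = 3), overlapping NS. The log2 difference of this ratio was 0.14, and it was 0.26 without overlap when Krt18 was left out. With Y-linked expression as a covariate, 0 members passed, and the values of Rpe65, Lrat, Rdh5, Stra6 and Rgr turned positive (0.21 to 0.85). The MSC-EVs term of that fit rests largely on MSC-EVs replicate 3, the only library of its group with few Y-linked counts.

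The third comparison set MSC-EVs-treated rd10 against WT, and it shares libraries with both others. MSC-EVs-treated rd10 had 3 of 10 members called lower, where 3.2% of the 14623 genes tested were. With no limit on the fold change there were 4, against 27.2% of all genes. The libraries did not overlap for 4 of 10 members, against 65.1% of all genes. Rdh12 (log2 fold change -1.72, edgeR adjusted p = 1.26e-05), Abca4 (-1.63, adjusted p = 5.68e-05) and Rdh8 (-1.14, adjusted p = 2.11e-06) were called. Rbp3 fell by 0.97 on the log2 scale (edgeR adjusted p = 9.76e-06), just under 2-fold. For Rlbp1 the log2 fold change was -0.01 with a 95% interval of -0.18 to 0.15 (edgeR adjusted p = 0.881), against 0.46 for NS-treated rd10. The other 5 members did not pass, with edgeR adjusted p-values of 0.134 to 0.988.

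Genes whose levels were most like those of a member were taken as the 2 with the highest Pearson r of log2 CPM over the 9 libraries among 14880 genes. For Rpe65 these were Rgr and Rdh5 (0.95 and 0.95), for Rgr Rpe65 and Ankrd34a (0.95 and 0.91), and for Rdh5 Ttr and Rpe65 (0.95 and 0.95). For Stra6 they were Ttr and Fap (0.97 and 0.96), and for Lrat Prkaca and Jph4 (0.97 and 0.95). For Rlbp1 they were Slc27a1 and Ube2e1 (0.97 and 0.96). The photoreceptor members had nearest genes at 0.997 or above: Kpna2 and Plekhf2 for Rdh12, Ankrd33 and Klhl18 for Abca4, Rp1l1 and Diaph3 for Rdh8, and Adamts3 and Cdhr1 for Rbp3.

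Retinoid genes and candidates outside the cycle were read from 5 lists holding 53 genes. Whether each listed gene acts on retinoids was not tested. Between NS-treated rd10 and WT, enzymes that make or break down retinoic acid had 4 of 6 tested called higher and 0 lower, with a median log2 fold change of 1.49. Aldh1a3, a retinaldehyde dehydrogenase, had 0.157 ± 0.0929 FPKM in WT, against 0.680 ± 0.104 in NS-treated rd10 (SD, n = 3 each; log2 fold change 1.85, edgeR adjusted p = 0.000374). Cyp1b1, a cytochrome P450 that can act on retinoids, went from 3.05 ± 0.229 to 11.2 ± 0.688 FPKM (SD, n = 3 each; log2 fold change 1.67, edgeR adjusted p = 1.51e-08). The other 2 called, Cyp26a1 (1.52), which degrades retinoic acid, and Aldh1a1 (1.46), which makes it, were named after their values were seen. The genes called thus hold enzymes of both synthesis and breakdown. The 6 receptors of retinoic acid had 0 called, with a median of 0.06.

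Among 10 carriers and uptake proteins tested, 1 was called lower, and the median was 0.11. This was Rtbdn (retbindin), which rods secrete and whose place on the list does not show that it carries retinoids. It fell from 401 ± 14.6 to 157 ± 13.9 FPKM (SD, n = 3 each; log2 fold change -1.58, edgeR adjusted p = 7.43e-09), between Rdh8 and Abca4 in size. Of 7 ester and isomerase candidates tested, 2 were called higher and 1 lower, with a median of 0.06. Mfsd2a, a lipid transporter, was at 2.06 and Pnpla2, a triglyceride lipase, at 1.36 (log2 fold changes, edgeR adjusted p = 6.43e-08 and 2.48e-08). Awat2, an acyltransferase that can esterify retinol, was at -1.83 (edgeR adjusted p = 0.000526), from 0.910 ± 0.219 to 0.317 ± 0.120 FPKM (SD, n = 3 each).

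Of 11 other retinoid dehydrogenases and reductases tested, 2 were called higher and 0 lower, with a median log2 fold change of -0.16. Rdh1 was at 1.85 (edgeR adjusted p = 0.000274), at levels under 1 FPKM in both groups. Dhrs9 had 0, 1 and 0 counts in WT, against 29, 17 and 28 in NS-treated rd10, so its fold cannot be sized. Neither Rdh1 nor Dhrs9 came near the FPKM of Rdh12 or Rdh8. With MSC-EVs against NS, 0 genes of the 5 lists were called, and 1 of the 41 tested had an adjusted p under 0.05. It was Rrh (peropsin, an opsin of the pigment epithelium), named after its values were seen, with 18.4 ± 0.538 FPKM in WT, 28.2 ± 0.670 in NS-treated and 20.3 ± 1.997 in MSC-EVs-treated rd10 (SD, n = 3 each). Its log2 fold change with MSC-EVs was -0.46 (edgeR adjusted p = 0.0497), and like Rlbp1 it lay below all NS libraries. Rrh did not follow the library order of the pigment epithelium members. It had 28.9, 28.1 and 27.5 FPKM in NS replicates 1, 2 and 3, and was lowest in MSC-EVs replicate 3 (18.1 FPKM).

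**Figure D5:**
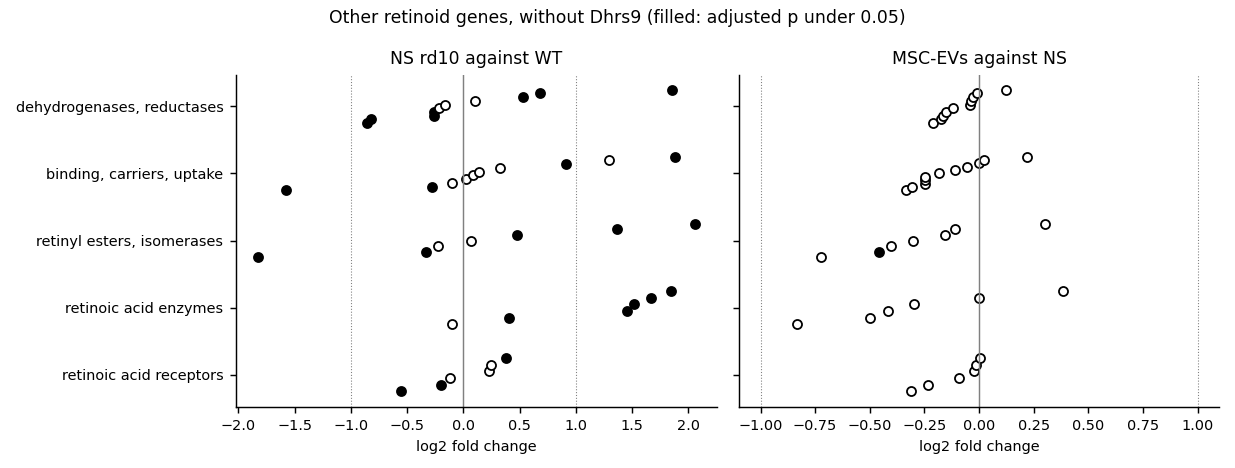
Fitted log2 fold changes (horizontal axes, scales differ) of the other retinoid genes by list, 1 point a gene, in NS-treated rd10 against WT and in MSC-EVs against NS; filled points have an edgeR adjusted p under 0.05, dotted lines mark 2-fold, and Dhrs9 is left out for its WT counts of 0, 1 and 0. On the left 4 filled points of the retinoic acid enzymes lie above 1, and on the right the 1 filled point is Rrh.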

How the data were processed

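RNA-seq of mouse retina was analysed in 9 libraries, 3 each from WT, rd10 given NS and rd10 given MSC-EVs. The authors deposited 1 table with an estimated count per gene and library, not scaled to depth, and an FPKM value, scaled by the authors to transcript length and depth. Per the submitters' processing notes, fastp, Bowtie2, HISAT2, StringTie 1.3.1 and RSEM were used. Their roles, the genome build and the annotation are not given in the sources used here. Of the genes, 9.16% to 11.7% per library carried decimals, and counts were rounded. The members and gene lists were chosen with earlier results of these data known.

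For every comparison the 6 libraries concerned were fitted in R 4.3.3 by edgeR 4.0.16 (default filterByExpr, TMM, robust glmQLFit, glmQLFTest), with Benjamini-Hochberg adjustment over all genes tested. Called means an adjusted p under 0.05 and a change of 1 or more on the log2 scale in either direction. The test was tried on simulated counts with known changes. Ratios to marker sums were compared per library on FPKM. For sums over members no p is given. Exact two-sided permutation tests over libraries were used for single genes against rod markers and for ratios between pairs of photoreceptor members. With 3 against 3 they cannot go below 0.1. The pairs share genes, so they are not independent.

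Named genes were all members, up to 2 rises and 2 falls called per retinoid list, the 3 most abundant genes of each of 5 marker lists, and 2 genes per member by correlation. Of the genes this rule covers, 2 are not reported here. Others are said to have been chosen after their values were seen. Of the table's identifiers, 22232 were found in GENCODE M21 (GRCm38). Promoters came from RefSeq. Alternatives were DESeq2 1.42.0 (Wald test, and its size factors in edgeR), upper-quartile normalization, edgeR's exact test, no filter or a minimum of 10 counts per library, a single fit of all 9 libraries, the replicate number as a block, limma 3.58.1 on log2(FPKM + 1) and log2(FPKM + 0.1), Y-linked expression as a covariate, other ratios, and each library left out in turn.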

Additional observations from a re-analysis of the deposited data

How the results depend on the processing

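The replicate numbers did not pair the libraries: same-numbered libraries correlated in their deviations with -0.06 to 0.27. A fit with the replicate number as a block changed no count of members called, gave 4 members called between NS-treated rd10 and WT, and moved the genes called between the rd10 groups from 9 to 21. The falls of Rdh12, Abca4, Rdh8 and Rbp3 against WT and the rise of Rlbp1 in NS-treated rd10 kept an adjusted p under 0.05 under all alternatives. Members called between NS-treated rd10 and WT numbered 3 to 8 with each library left out, and those with an adjusted p under 0.05 numbered 5 to 9, both highest without NS replicate 2. Between the rd10 groups, the members with an adjusted p under 0.05 numbered 1 (Rlbp1) with DESeq2's Wald test, the exact test, no filter and all 9 libraries in 1 fit, and 0 to 1 with a library left out. Genes with an adjusted p under 0.05 also numbered more there: 930 (DESeq2) and 774 (exact test) of 14765. They were 228 of 18173 (no filter) and 1026 of 14908 (all 9 libraries), against 172 of 14765 in the main fit. With the Y-linked covariate, MSC-EVs-treated rd10 against WT gave 6 members called and 8 with an adjusted p under 0.05. The cause of these changes was not tested. Over all genes, calls between NS-treated rd10 and WT numbered 1863, and 988 with limma on log2(FPKM + 1). Between the rd10 groups they numbered 9, against 33 (DESeq2), 52 (exact test), 38 (all 9 libraries), 28 (Y-linked covariate), and 6 (limma on log2(FPKM + 1)). With a library left out they ran from 0 (NS replicate 3, and also MSC-EVs replicate 1) to 82 (MSC-EVs replicate 2).

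Values that turned sign belonged to differences that had not passed as reported, of which Rpe65 and Rdh5 against WT passed with the Y-linked covariate. For the pigment epithelium members over their markers, MSC-EVs against NS was 0.14 and ran from -0.15 to 0.30 with a library left out. For Rlbp1 with Rgr over Müller markers it was -0.26, and 0.072 with equal weight for each gene. For Rgr, NS against WT was -0.060 with the block and -0.12 and -0.17 with limma on log2(FPKM + 1) and log2(FPKM + 0.1), and -0.51 to 0.49 with a library left out. MSC-EVs against NS was 0.016 for Rgr with the block, 0.083 and 0.12 with limma, and 0.65 with the Y-linked covariate, which also gave 0.85 for Rpe65, 0.24 for Lrat, 0.33 for Rdh5 and 0.21 for Stra6. With limma Rpe65 was at 0.0034 on log2(FPKM + 0.1), and Abca4 at -0.034 on both scales. With a library left out, Rpe65 ran from -0.88 to 0.47, Rdh5 from -0.89 to 0.23, Stra6 from -0.53 to 0.095 and Rgr from -0.69 to 0.48. Against WT, MSC-EVs-treated rd10 ran from -0.31 to 0.84 for Rpe65, -0.058 to 0.75 for Rdh5, -0.077 to 0.056 for Rlbp1 and -0.61 to 0.26 for Rgr with a library left out. Rlbp1 was at 0.00046 with at least 10 counts in every library and at 0.14 with limma on both scales, and Rgr at 0.0034 with at least 10 counts and at 0.67 with the Y-linked covariate. The pigment epithelium members spread widely between libraries, and their lowest counts were 61 (Rdh5), 67 (Lrat), 68 (Rpe65) and 122 (Stra6). Whether depth limited any comparison was not tested.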
